A study of Homo sapiens with 2 samples.

Results

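The genes described here are *MYC* and 38 genes for making ribosomes and polyamines. These 39 genes were chosen by symbol from the 36601 genes of the deposited matrices. The rule held no measured value, but earlier results of these data were known when it was written. All 39 genes were found. They were followed in CD7+ cells derived from H1, an established line of human embryonic stem cells, which first went through 12 days of hematopoietic differentiation with growth factors. The cells were then grown on OP9-DLL4, a mouse stromal line that presents the Notch ligand DLL4, and were sorted for the surface protein CD7 after 10 or 14 days. One droplet-based single-cell library was made per day, so every difference between the days is also a difference between the libraries and has no replicate check. H1 is 1 line, and the sort left out CD7-negative cells.

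MYC is a transcription factor that binds E-box DNA together with its partner MAX and raises the output of growth genes. Ribosome production is its best known programme. In the nucleolus RNA polymerase I copies the ribosomal DNA, box C/D and box H/ACA particles modify the new rRNA, and large sets of assembly factors trim and fold it into the small and the large subunit. Early T lineage precursors use MYC when they divide in response to Notch and cytokine signals, and its level drops in thymocytes that stop dividing.

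RefSeq promoter windows (GRCh38.p14, 250 bases before to 50 bases after each annotated start) were found for 31 of the 39 members. The windows were searched for CACGTG, the canonical E-box, which reads the same on both strands. It was present in at least 1 window of 16 members (51.6%), beside 1727 of 15842 protein-coding genes with a window (10.9%). *MYC*, *NOP58*, *NOLC1*, *BOP1*, *RRS1*, *RRP12*, *RRP1B* and *TCOF1* had no window. The sequences below are shown because they carry an E-box before an annotated start in members that cover the range of day 14 to day 10 ratios. *ODC1*, *SRM* and *UTP20* were among the members with the lowest day 14 to day 10 ratios, *UTP4* and *DDX21* differed by less than 1.5-fold, and *NOP10* was the member above 0 on the log2 scale. The capitals mark the last E-box before the start, and each sequence reads in the direction of its gene. The *ODC1* window holds a further E-box that does not lie wholly before the start and is not shown. In *DDX21*, *NOP10* and *UTP4* an exon of another annotated transcript covers the site. The *ODC1* and *DDX21* sites lie inside the gene, before a later annotated start. The window of the earlier start holds no E-box in either gene.
ODC1 (chr2:10448015-10448072, minus strand): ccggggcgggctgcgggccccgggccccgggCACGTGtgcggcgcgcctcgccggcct
SRM (chr1:11060185-11060244, minus strand): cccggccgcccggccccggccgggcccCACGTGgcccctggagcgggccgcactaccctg
UTP20 (chr12:101280045-101280104, plus strand): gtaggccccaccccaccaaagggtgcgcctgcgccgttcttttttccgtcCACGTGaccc
UTP4 (chr16:69132619-69132648, plus strand): tgagagcgcgcgcgCACGTGgggccggggc
DDX21 (chr10:68956604-68956633, plus strand): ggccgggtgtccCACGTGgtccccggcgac
NOP10 (chr15:34343137-34343166, minus strand): caggaaggaaattgacgaaCACGTGacgcg

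The marked E-box lay 29 bases before the annotated start of its window in *ODC1*, 199 in *SRM*, 10 in *UTP20*, 16 in *UTP4*, 31 in *DDX21* and 11 in *NOP10*. The 16 members with the motif had a median day 14 to day 10 log2 ratio of -0.75, and the 15 members with a window but without it had -0.70. In *IGLL1*-low *CD3D*+ cells the medians were -0.78 with the motif and -0.83 without it, and in cycling *CD8B*+ cells -0.57 and -0.62, so the order of both sets turned with the cells compared. A match of letters is not a measured binding site, and the library gives no reading of MYC on DNA.

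The day 10 library held 217681173 unique molecular identifiers (UMIs, each standing for 1 captured transcript) and the day 14 library held 169758367. After barcodes outside 1000 to 7000 detected genes, or above 18% mitochondrial UMIs, were dropped, 12114 and 8929 cells were kept, with medians of 16173.5 and 15029 UMIs. The kept cells of both days shared 29 barcodes. Barcodes under 50 UMIs, which hold mostly free RNA, carried the members at 0.740% of their UMIs at day 10 and 0.405% at day 14, so the free RNA differed between the days in the same direction as the cells. The median member stood there at 88.9% of its cell level at day 10 and 77.2% at day 14, and no correction for free RNA was applied.

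Cells were gated on single genes rather than clustered. *CD34*+ cells had at least 1 *CD34* UMI (1253 cells at day 10 and 45 at day 14). *IGLL1*-high cells had 1000 CPM or more (UMIs of the gene per 1000000 UMIs) of *IGLL1*, a surrogate light chain gene of early lymphoid cells (2038 and 22 cells). *IGLL1*-low *CD3D*+ cells had a *CD3D* UMI, less *IGLL1* and no *CD8B* UMI (6008 and 1364 cells), and *CD8B*+ cells had at least 2 *CD8B* UMIs (427 and 4987 cells). *GNLY*-high cells had 1000 CPM or more of the cytotoxic gene *GNLY* (237 and 1693 cells), and *CST3*+*LYZ*-high cells had that level of 2 myeloid genes together (1236 and 7 cells). The *CD34* gate rests on single UMIs, and barcodes under 50 UMIs held *CD34* at 10.7 CPM at day 10, beside 15.4 CPM in cells, and at 22.4 CPM at day 14, beside 0.474 CPM in cells. Each cell was also called cycling at 1000 CPM or more over 20 proliferation genes, or resting under 300 CPM.

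The marker lists followed the gates. The 7 progenitor markers, *CD34* included, summed to 968 CPM in *CD34*+ cells at day 10 and to 130 CPM in *IGLL1*-high cells. The 8 T lineage markers summed to 1634 CPM in *CD34*+ cells, 2712 CPM in *IGLL1*-high cells and 3792 CPM in *IGLL1*-low *CD3D*+ cells at day 10. In *CD8B*+ cells at day 14 they reached 5275 CPM. The 8 cytotoxic markers, *GNLY* included, summed to 18238 CPM in *GNLY*-high cells at day 14 and to 547 CPM in *CD8B*+ cells.

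The 39 members together took 0.831% of all UMIs at day 10 (95% Poisson interval 0.830 to 0.832%) and 0.511% at day 14 (0.510 to 0.512%). All intervals given here cover counting error only. At day 10 the share was 0.848% in *CD34*+ cells, 0.931% in *IGLL1*-high cells, 0.852% in *IGLL1*-low *CD3D*+ cells and 0.834% in *CD8B*+ cells. It was lower in *GNLY*-high cells (0.608%) and in *CST3*+*LYZ*-high cells (0.549%) of the same library. At day 14 it was 0.480% in *IGLL1*-low *CD3D*+ cells, 0.540% in *CD8B*+ cells and 0.399% in *GNLY*-high cells. Each of these 3 groups was thus below the group of the same name at day 10.

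The share was higher in cycling than in resting cells of every gate. In *IGLL1*-low *CD3D*+ cells of day 10 the share was 0.865% in cycling and 0.481% in resting cells, and at day 14 it was 0.527% and 0.345%. In *CD8B*+ cells of day 14 it was 0.563% and 0.351%. Resting *IGLL1*-low *CD3D*+ cells of day 10 (0.481%) came just below cycling cells of the same gate at day 14 (0.527%). The cytosolic ribosomal proteins, the products that these factors assemble, took 23.0% of all UMIs at day 10 and 22.3% at day 14.

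**Figure D1:**
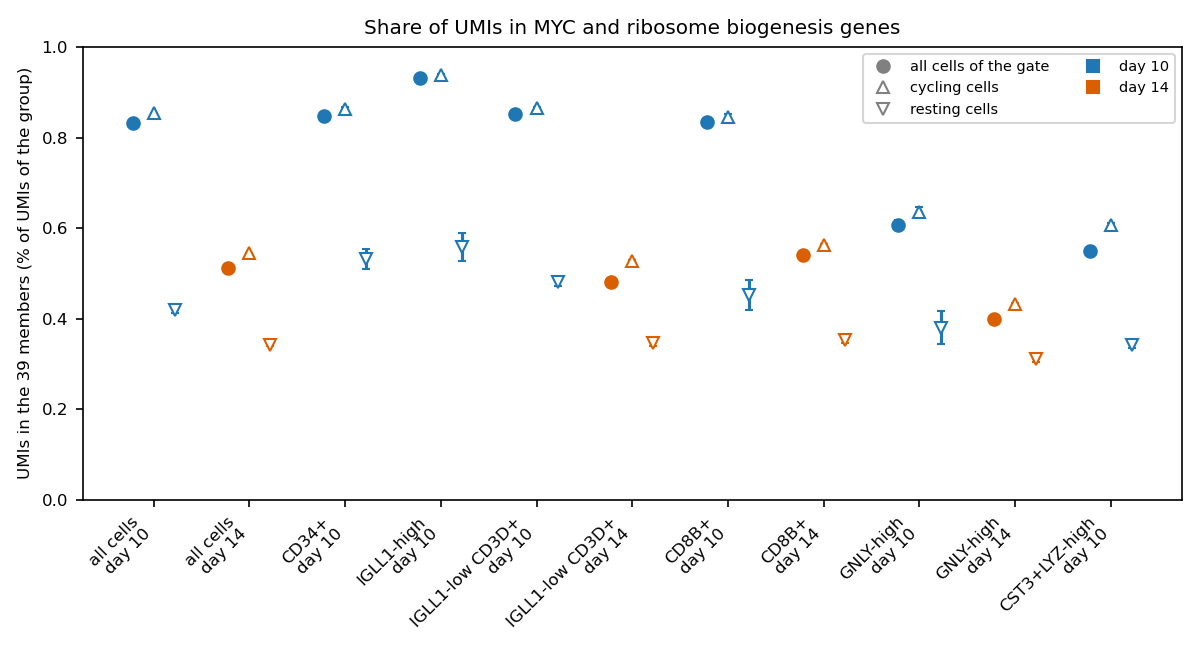
Share of UMIs in the 39 members (y axis, % of the UMIs of a group) for all kept cells and for each gate with 50 or more cells, by day (colour), with all cells of the gate as filled circles and its cycling and resting cells as open triangles. Error bars are exact Poisson 95% intervals. Every day 14 group sits below the day 10 group of the same gate and phase, and cycling cells sit above resting cells in every gate.

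The day 14 library was compared with the day 10 library gene by gene. Ratios are given on the log2 scale of CPM + 5, and a gene was called at 1.5-fold or more on that scale when it had at least 10 CPM in 1 of the groups. Over all kept cells 23 of the 39 members were lower at day 14 and 0 were higher, beside 9.63% and 12% of the 8295 genes tested. The median log2 ratio was -0.71 over the members and -0.00 over all genes tested. The log2 ratio was below 0 for 38 members, with *NOP10* as the exception. The lower members were spread over every role except the regulator itself.

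**Figure D2:**
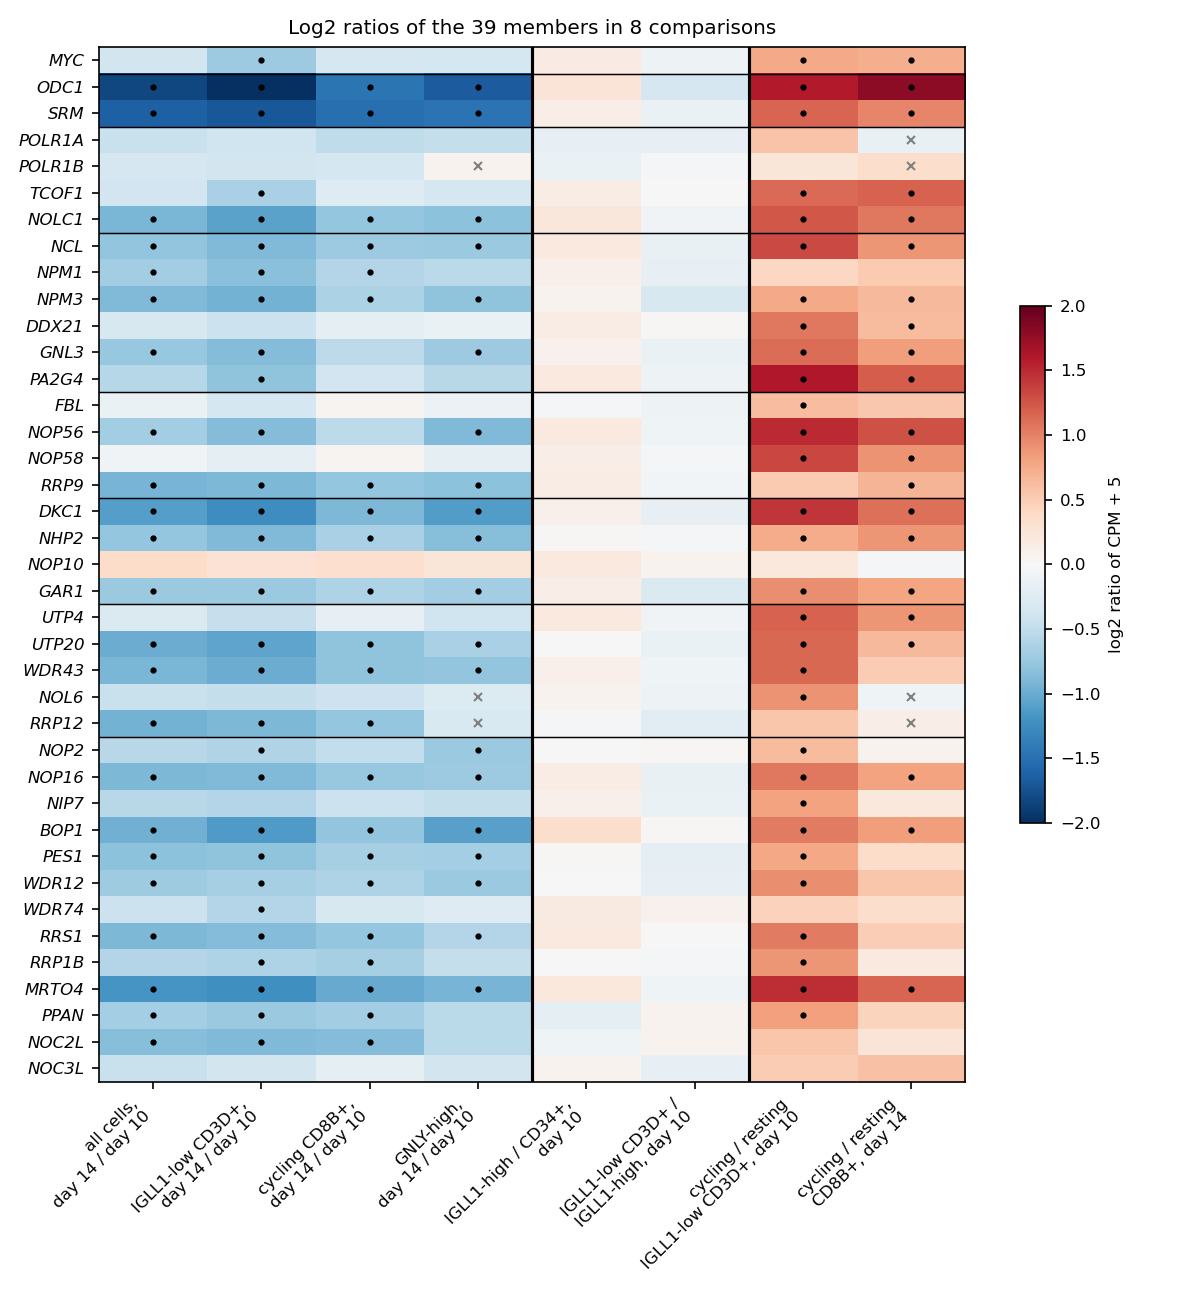
Log2 ratios of CPM + 5 (colour) for the 39 members, in rows grouped by role, in 8 comparisons in columns. Black dots mark ratios of 1.5-fold or more, and grey crosses mark genes under 10 CPM in both groups. The 4 day 14 over day 10 columns are mostly blue and both cycling over resting columns mostly red. The 2 columns that compare early lymphoid gates of day 10 carry no dot.

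*MYC* itself differed less than most of the genes around it. Its level was 69.5 CPM (95% interval 68.3 to 70.6) at day 10 and 53.0 CPM (51.8 to 54.1) at day 14, a ratio of 0.762 (0.742 to 0.783), which did not pass 1.5-fold. By gate it was at 69.0 CPM in *CD34*+, 78.0 CPM in *IGLL1*-high, 72.2 CPM in *IGLL1*-low *CD3D*+ and 42.8 CPM in *GNLY*-high cells at day 10. At day 14 it was at 41.6 CPM in *IGLL1*-low *CD3D*+ and 32.4 CPM in *GNLY*-high cells. Among cycling *CD8B*+ cells it was at 80.9 CPM at day 10 against 63.3 CPM at day 14. The *IGLL1*-low *CD3D*+ gate was the gate in which *MYC* passed 1.5-fold between the days, with a ratio of 0.576 (0.536 to 0.619). Among the cycling cells of that gate it was at 73.3 CPM and 51.6 CPM.

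The polyamine genes had the lowest ratios. *ODC1* encodes ornithine decarboxylase, the first enzyme of polyamine synthesis and a direct MYC target in many cells. Its level was 216 CPM at day 10 against 57.2 CPM at day 14, which is 3.77-fold lower (ratio 0.265, 0.259 to 0.271). *SRM*, the spermidine synthase gene, was at 363 CPM and 113 CPM (ratio 0.312, 0.307 to 0.318). Across the day 10 gates *ODC1* was at 225 CPM in *CD34*+, 269 CPM in *IGLL1*-high, 212 CPM in *IGLL1*-low *CD3D*+, 199 CPM in *CD8B*+, 98.9 CPM in *GNLY*-high and 141 CPM in *CST3*+*LYZ*-high cells. Its day 14 values were 49.2 CPM in *IGLL1*-low *CD3D*+, 64.6 CPM in *CD8B*+ and 27.6 CPM in *GNLY*-high cells. Among gates with 50 or more cells the values of the 2 days did not overlap for *ODC1*. This depends on that limit, since the 22 *IGLL1*-high cells of day 14 had more *ODC1* than *GNLY*-high cells of day 10. *SRM* was at 233 to 410 CPM in the same day 10 gates and at 112 CPM, 118 CPM and 87.1 CPM in the day 14 gates, again without overlap. How many of all genes were separated by day in this way was not counted.

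The polymerase I and ribosomal DNA group held 1 lower member of 4. *NOLC1*, a nucleolar phosphoprotein that links polymerase I with the modification particles, was at 93.3 CPM at day 10 against 47.4 CPM at day 14 (log2 ratio -0.91). The subunit genes *POLR1A* and *POLR1B* were near the level limit, at 13.0 and 12.0 CPM at day 10 and 8.31 and 8.54 CPM at day 14. *TCOF1*, which encodes treacle, a cofactor of ribosomal DNA transcription, had a log2 ratio of -0.39. The 3 genes other than *NOLC1* did not pass 1.5-fold.

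Among the abundant nucleolar proteins 4 of 6 members were lower. *NCL*, which encodes nucleolin, went from 1342 CPM to 774 CPM (ratio 0.577, 0.573 to 0.581), and *NPM1*, the nucleophosmin gene, from 2886 CPM to 1778 CPM (ratio 0.616, 0.613 to 0.619). *NPM1* has processed pseudogenes, and how reads shared with them were assigned was not tested. *NPM3* and *GNL3*, the nucleostemin gene, had log2 ratios of -0.88 and -0.75. *DDX21*, an RNA helicase, and *PA2G4*, a growth-regulated RNA-binding protein gene, had ratios of -0.32 and -0.57 on the log2 scale and did not pass.

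Ratios differed between members of the same modification particle. In the box C/D particle, which guides rRNA methylation, *NOP56* was at 280 CPM and 172 CPM (log2 ratio -0.69) and its partner *NOP58* at 120 CPM and 113 CPM (-0.07). *FBL*, the methyltransferase fibrillarin, was at 171 CPM and 156 CPM (-0.13), and *RRP9*, a component of the related U3 particle, at 34.4 CPM and 15.6 CPM (-0.94). In the box H/ACA particle, which guides pseudouridylation, the synthase gene *DKC1* was at 196 CPM and 88.0 CPM (ratio 0.450, 0.441 to 0.459). *NHP2* and *GAR1* had log2 ratios of -0.77 and -0.74. *NOP10*, the smallest protein of this particle, was at 285 CPM at day 10 against 371 CPM at day 14 (ratio 1.30, 1.29 to 1.32). It was the member with a log2 ratio above 0, and at 0.37 it stayed under 1.5-fold.

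The small subunit factors take part in folding and cutting the early precursor rRNA. *UTP20* was at 28.9 CPM and 12.0 CPM and was lower, as were *RRP12* (log2 ratio -0.94) and *WDR43* (-0.91). *NOL6* (-0.45) and *UTP4* (-0.28) did not pass. Of the 13 large subunit factors 8 were lower. *MRTO4*, which holds the place of the stalk protein during assembly, had the lowest ratio and was at 131 CPM and 55.3 CPM (ratio 0.422, 0.412 to 0.432). *BOP1*, *PES1* and *WDR12* encode the 3 proteins of the PeBoW complex, and their log2 ratios were -0.97, -0.81 and -0.71. *NOP16*, *RRS1*, *NOC2L* and *PPAN* had ratios of -0.89, -0.89, -0.85 and -0.68 on the log2 scale. *NOP2*, *NIP7*, *RRP1B*, *WDR74* and *NOC3L* were between -0.58 and -0.43 and did not pass.

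The mix of cell types differed between the days, so the comparison was repeated within gates. These comparisons use the same 2 libraries as the one over all cells and are not further evidence for it. Cycling cells made up 89.8% of all kept cells at day 10 and 68.8% at day 14. In the *IGLL1*-low *CD3D*+ gate 5591 of 6008 cells were cycling at day 10 and 805 of 1364 at day 14. In the *GNLY*-high gate 184 of 237 and 841 of 1693 were. The counts for these 2 whole gates are thus not matched on cycling, and its part in them was not tested. In *IGLL1*-low *CD3D*+ cells 29 members were lower at day 14 and 0 higher, beside 10.9% and 13.1% of 8193 genes, with a median log2 ratio of -0.81. In *GNLY*-high cells 20 of 36 members tested were lower and 0 higher, beside 10.2% and 8.94% of 8335 genes, with a median of -0.67. In cycling *CD8B*+ cells 22 of 39 were lower and 0 higher, beside 6.56% and 8.85% of 8002 genes, with a median of -0.62. Cycling *CD8B*+ cells of day 14 set against cycling *IGLL1*-low *CD3D*+ cells of day 10 gave 23 lower members and 0 higher, beside 7.03% and 9.59% of 8007 genes. The genes at 50 CPM or more had a median shift of -0.14 in *IGLL1*-low *CD3D*+ cells and -0.15 in *GNLY*-high cells, beside the member medians of -0.81 and -0.67. Markers of other cells also moved inside the *IGLL1*-low *CD3D*+ gate. All 8 cytotoxic markers were higher there at day 14 (median log2 ratio 1.78), with a summed level of 729 CPM at day 10 against 2062 CPM at day 14, and *GNLY*-high cells had a lower member share at both days. Cells with a UMI of *FST* made up 22.3% of the gate at day 10 and 4.55% at day 14, and without them 30 members were lower. In *GNLY*-high cells 4 of 8 cytotoxic markers were higher at day 14, and in cycling *CD8B*+ cells 3 of 5 tested were. The part of these markers in the member ratios was not tested.

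The members at either end are given side by side. *ODC1* had ratios of 0.232 in *IGLL1*-low *CD3D*+, 0.279 in *GNLY*-high and 0.346 in cycling *CD8B*+ cells. On the log2 scale *SRM* had -1.69, -1.48 and -1.51 in that order, *DKC1* had -1.25, -1.12 and -0.90, and *MRTO4* had -1.22, -0.92 and -1.01. At the other end *NOP10* had 0.29, 0.24 and 0.34 and *NOP58* had -0.18, -0.19 and 0.06. Among cycling *CD8B*+ cells *NOP58* was at 123 CPM at day 10 against 128 CPM at day 14, which did not differ beyond counting error (ratio 1.04, 0.976 to 1.12). *FBL* had a log2 ratio of 0.05 there. The cycling gene list, which could move such values, had a median log2 ratio of -0.02 in that comparison, -0.46 in *IGLL1*-low *CD3D*+ cells and -0.59 in *GNLY*-high cells.

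**Figure D3:**
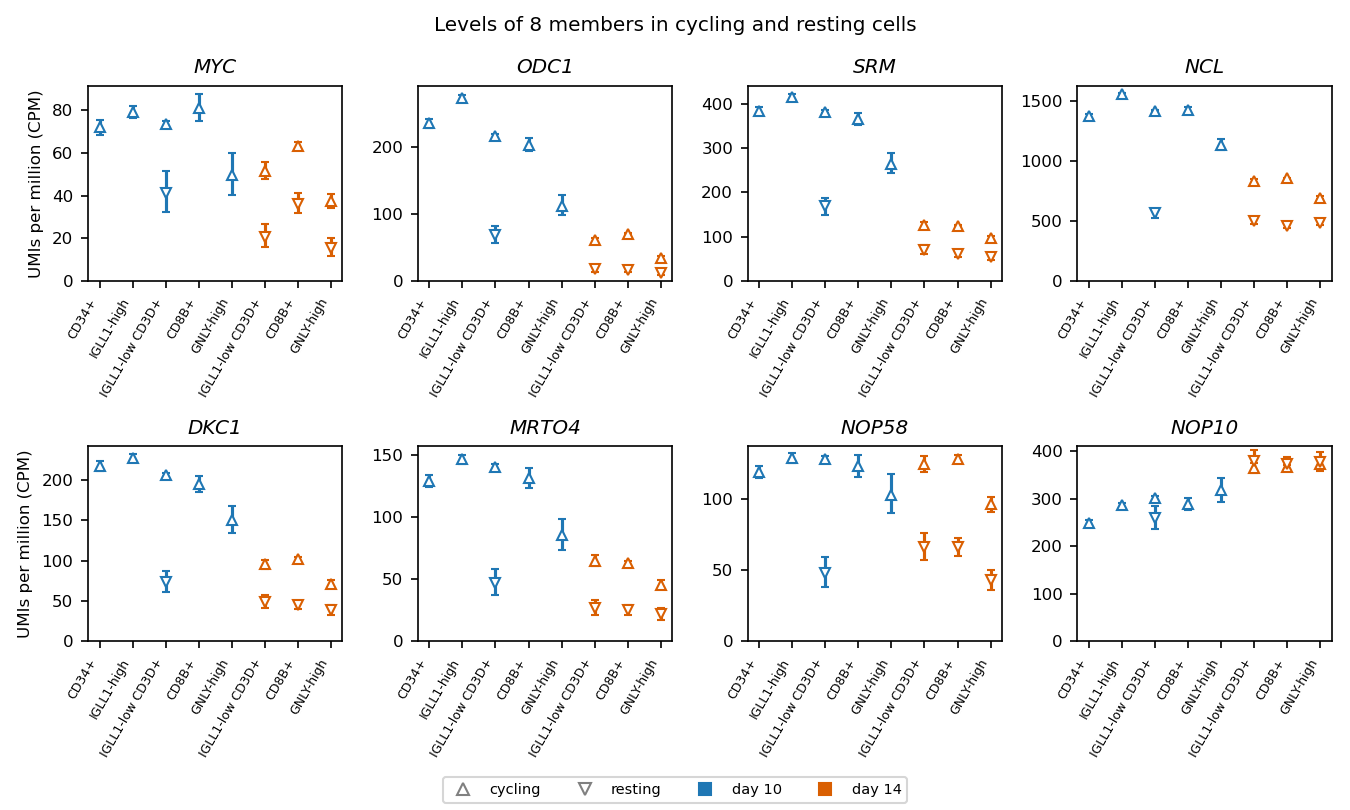
Level in CPM (y axis, linear, from 0) of 8 members in cycling (upward triangles) and resting (downward triangles) cells of groups with 100 or more cells, for day 10 (blue) and day 14 (orange), with exact Poisson 95% intervals. *ODC1*, *SRM*, *DKC1* and *MRTO4* are lower in each cycling day 14 group than in each cycling day 10 group, whereas *NOP58* overlaps between the days and *NOP10* is higher at day 14. The number of all genes separated by day in this way was not counted.

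Within day 10 no member passed 1.5-fold along the early lymphoid gates. Between *CD34*+ and *IGLL1*-high cells 0 members passed 1.5-fold in either direction, beside 4.09% lower and 2.35% higher of 7954 genes, and the median log2 ratio of the members was 0.11. The range was from -0.18 for *PPAN* to 0.35 for *BOP1*. From *IGLL1*-high to *IGLL1*-low *CD3D*+ cells 0 members passed as well, beside 1.57% and 2.12% of 7718 genes, with a median of -0.10. *ODC1* had the lowest value there (-0.34), going from 269 CPM to 212 CPM. The 7 progenitor markers, which include the gating gene *CD34*, had a median log2 ratio of -2.17 from *CD34*+ to *IGLL1*-high cells.

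*MYCN*, a paralog of *MYC*, was an exception among the MYC network genes. It was at 33.3 CPM in *CD34*+ cells and 4.66 CPM in *IGLL1*-high cells (log2 ratio -1.99), while *MYC* was at 69.0 and 78.0 CPM. It was the only one of the 10 network genes tested that passed 1.5-fold in that comparison.

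Cycling cells were compared with resting cells of the same gate and library. In *IGLL1*-low *CD3D*+ cells of day 10 (5591 cycling and 186 resting cells) 30 of 39 members were higher in cycling cells and 0 lower, beside 18.6% and 15.5% of 8321 genes. The median log2 ratio was 0.92 over the members and -0.01 over all genes tested. In *CD8B*+ cells of day 14 (3883 and 589 cells) 21 of 35 members tested were higher and 0 lower, beside 16.2% and 11% of 8284 genes, with a median of 0.69. These are different libraries, and 20 members were higher in both, which is 95.2% of the 21 and 66.7% of the 30. The same 20 cycling genes set the phases in both, and how many of all genes were higher in both was not counted. Resting *IGLL1*-low *CD3D*+ cells of day 10 differed in other markers too. In cycling cells 5 of 6 cytotoxic markers tested were lower (median log2 ratio -1.25, summed level 710 CPM against 1323 CPM in resting cells), as were 4 of 5 progenitor markers (45.2 CPM against 135 CPM) and 4 of 5 myeloid markers (506 CPM against 727 CPM). The stress genes summed to 588 CPM in cycling and 864 CPM in resting cells. *FST* was seen in 21.1% of cycling and 40.9% of resting cells, and without cells that had it 32 members were higher. In *CD8B*+ cells of day 14, 3 of 5 cytotoxic markers tested were lower in cycling cells, and stress genes were at 460 CPM and 648 CPM. The part of these markers in the member ratios was not tested. Cycling cells also held more UMIs than resting cells, with medians of 15735 and 9458 in the first gate and 19703 and 10085 in the second, and the part of depth was not tested beyond the thinned counts given below.

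The genes with the highest ratios came from several roles. *PA2G4* was at 553 CPM in cycling and 179 CPM in resting *IGLL1*-low *CD3D*+ cells (ratio 3.09, 2.77 to 3.46), and at 414 CPM and 176 CPM in *CD8B*+ cells of day 14. *ODC1* was at 217 CPM and 68.7 CPM (ratio 3.16, 2.65 to 3.81) in the first gate and at 70.5 CPM and 16.9 CPM (ratio 4.16, 3.45 to 5.07) in the second. *NOP56* had log2 ratios of 1.49 and 1.28, *MRTO4* of 1.48 and 1.16, *DKC1* of 1.43 and 1.09 and *NCL* of 1.32 and 0.89.

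*NOP58* and *MYC* passed between cycling and resting cells but not between the days over all cells. *NOP58* was at 128 CPM in cycling and 47.8 CPM in resting cells at day 10 (ratio 2.67, 2.16 to 3.35), and at 128 CPM and 66.4 CPM in *CD8B*+ cells of day 14 (ratio 1.93, 1.75 to 2.13). *MYC* was at 73.3 CPM and 41.1 CPM (ratio 1.78, 1.42 to 2.28) and at 63.3 CPM and 36.2 CPM (ratio 1.75, 1.54 to 2.00). *TCOF1*, which did not pass between the days, had log2 ratios of 1.14 and 1.19 between cycling and resting cells. *NPM1*, lower at day 14, had 0.41 and 0.52 between cycling and resting cells and did not pass. *NOP10* was at 301 CPM and 259 CPM at day 10 and at 367 CPM and 373 CPM at day 14, and it passed in neither gate.

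Several large subunit factors were higher in cycling *IGLL1*-low *CD3D*+ cells of day 10 without passing in *CD8B*+ cells of day 14. Of the 13 factors 10 passed in the first gate, beside 18.6% of all genes tested. In the second gate 3 passed, *NOP16*, *BOP1* and *MRTO4*, beside 16.2% of all genes tested. How many of all genes passed in the first gate alone was not counted, so the pattern is not set apart from that of other genes. *NOP2* had 0.64 and 0.07 on the log2 scale, *RRP1B* 0.88 and 0.20, and *NIP7* 0.81 and 0.20. These gates differ in cell type, day and library, which cannot be told apart, and the difference between them was not tested.

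In the resting cells of day 14 the members took 0.311% of UMIs in *GNLY*-high and 0.351% in *CD8B*+ cells. Resting *GNLY*-high cells (408 cells) and resting *CD8B*+ cells (589 cells) differed in 3 of 34 members tested, all lower in *GNLY*-high cells, beside 8.4% of 8141 genes lower and 10.6% higher. Of these *MYC* was at 15.5 CPM (95% interval 11.8 to 20.1) and 36.2 CPM (31.7 to 41.1), a ratio of 0.430 (0.317 to 0.575). *UTP4* was at 5.89 CPM and 12.2 CPM, and *NPM3* had a log2 ratio of -0.61. The median of the members was -0.18. *NCL* was at 487 CPM and 460 CPM, and *NOP10* at 378 CPM and 373 CPM. The share of members that were lower was near that of all genes, and the count was 0 to 5 under the alternatives tried.

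At day 10 the cycling *CST3*+*LYZ*-high cells (787 cells) gave a view of the members outside the lymphoid gates. Set against cycling *IGLL1*-low *CD3D*+ cells, 5 of 39 members were lower and 0 higher, beside 14.4% and 13.7% of 8222 genes. The lower count was thus near the share of all genes, and the comparison was added after the data were seen. The 5 were *MYC* (40.2 CPM and 73.3 CPM), *RRP1B*, *NCL*, *NOP56* and *NPM1*. The median of the members was -0.36, and genes at 50 CPM or more had a median shift of -0.22. With counts scaled by the median ratio 2 members were lower, and with cycling set at 3000 CPM or more 11 were. In the same comparison *MYCL*, another paralog, was at 39.1 CPM in the *CST3*+*LYZ*-high cells and 0.416 CPM in the *IGLL1*-low *CD3D*+ cells. *SAT1*, which encodes the enzyme that acetylates polyamines for breakdown and export, was at 774 CPM and 43.6 CPM.

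Sums over cells could hide a few cells with very high values, so the members were also counted per cell after each cell was thinned to 5000 UMIs. This left out 291 shallower cells at day 10 and 382 at day 14. The median cell held 39 member UMIs at day 10 and 21 at day 14. The middle 80% of cells ran from 21 to 59 at day 10 and from 12 to 39 at day 14. By gate the median was 45 in cycling *IGLL1*-high, 42 in cycling *IGLL1*-low *CD3D*+ and 41 in cycling *CD8B*+ cells at day 10. It was lower in cycling *GNLY*-high (25) and cycling *CST3*+*LYZ*-high cells (29) of that day. It was 23 in cycling *IGLL1*-low *CD3D*+, 25 in cycling *CD8B*+ and 20 in cycling *GNLY*-high cells at day 14. The 10th, 50th and 90th percentiles were thus all lower at day 14, and the distributions overlapped. Resting cells had medians of 22 at day 10 and 16 at day 14 in the *IGLL1*-low *CD3D*+ gate.

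**Figure D4:**
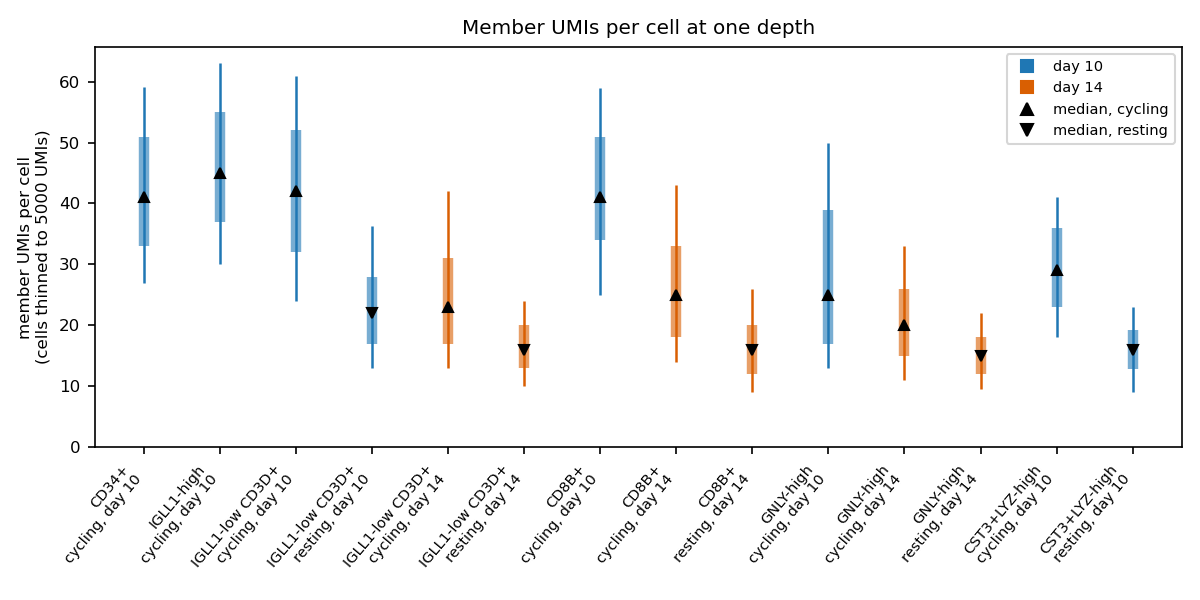
Member UMIs per cell (y axis) after thinning each cell to 5000 UMIs, for groups with 100 or more cells. Triangles are medians over cells, thick bars run from the 25th to the 75th percentile and thin lines from the 10th to the 90th. Medians are 41 to 45 in the cycling *CD34*+, *IGLL1*-high, *IGLL1*-low *CD3D*+ and *CD8B*+ cells of day 10. The other day 10 groups have 25 (cycling *GNLY*-high), 29 (cycling *CST3*+*LYZ*-high), 22 (resting *IGLL1*-low *CD3D*+) and 16 (resting *CST3*+*LYZ*-high). The day 14 groups, cycling and resting, have 15 to 25.

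At this depth a *MYC* UMI was seen in 24.1% of cells at day 10 (exact binomial 95% interval 23.3 to 24.9%) and in 15.0% at day 14 (14.2 to 15.8%). Without thinning the shares were 48.2% and 30.3%. No gate is known to lack *MYC*, and among groups with 100 or more cells the lowest share was 5.62%, in resting *GNLY*-high cells of day 14 (11.5% without thinning). Barcodes under 50 UMIs held *MYC* at 67.0 CPM at day 10 against 39.9 CPM at day 14, and the part of free RNA in these shares was not tested.

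Cells with a *MYC* UMI were then set against cells of the same gate, day and phase without one, at equal depth. The other 38 members together were higher in the cells with *MYC* by a ratio of 1.12 (1.11 to 1.13) in cycling *IGLL1*-low *CD3D*+ cells of day 10 (1423 and 4080 cells). In cycling *CD8B*+ cells of day 14 the ratio was 1.28 (1.26 to 1.30; 732 and 3086 cells). In cycling *IGLL1*-low *CD3D*+ cells of day 14 it was 1.34 (1.29 to 1.39), with 13 of 38 members past 1.5-fold, beside 6.83% of 8314 genes. In cycling *GNLY*-high cells of day 14, 9 of 34 members tested passed, beside 5.94% of 8294 genes. In the *CD8B*+ cells 11 of 37 members tested passed 1.5-fold, beside 0.592% of 7945 genes, and in the *IGLL1*-low *CD3D*+ cells of day 10 0 of 38 did, beside 0% of 7610 genes. In the other cycling cells of day 10 the counts were 0 in *CD34*+ (beside 1.28% of genes), 0 in *IGLL1*-high (0.104%), 3 in *CD8B*+ (5.9%), 0 in *CST3*+*LYZ*-high (5.08%) and 1 in ungated cells (2.02%), and in ungated cycling cells of day 14 the count was 15 of 36 (7.96%). The difference between the days was not tested. The members with the highest log2 ratios in the *CD8B*+ cells were *NOP16* (0.92), *RRS1* (0.87), *NOLC1* (0.75), *WDR43* (0.73) and *RRP9* (0.68). *UTP4* (-0.01), *RRP12* (-0.00) and *NOP10* (0.10) were at the other end. The *CD8B*+ cells with a *MYC* UMI had a higher depth before thinning (median 21639 and 19430 UMIs) and a lower level of the cycling genes (4972 and 5843 CPM), and the part of either in the difference was not tested. In cycling *IGLL1*-low *CD3D*+ cells the medians were 21094.5 and 16516 UMIs at day 14, and 15934 and 15810 UMIs at day 10. At day 14 they were 16858 and 14713 UMIs in cycling *GNLY*-high cells, and 18272 and 18612 UMIs in cycling ungated cells. The part of depth was not tested in these groups either.

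Other lists of the pathway were read beside the members in the comparison of all cells by day. They were written with earlier results of these data known, and their counts stand beside 9.63% lower and 12% higher of all 8295 genes. Of 23 other MYC targets 13 were lower at day 14 and 1 higher, with a median log2 ratio of -0.74. *HSPD1*, a mitochondrial chaperonin gene, was at 383 CPM at day 14 against 1133 CPM at day 10, and *NME1*, a nucleoside diphosphate kinase gene, at 254 CPM and 585 CPM. Of the 40 small-subunit processome genes tested 19 were lower and 0 higher (median -0.58), and of 40 large-subunit assembly genes 14 were lower and 0 higher (median -0.44). *TSR1*, a late small subunit factor, had -1.01, and *GTPBP4*, a nucleolar GTPase of the large subunit, had -1.07. Of 27 mitochondrial ribosomal proteins 10 were lower and 0 higher (median -0.56), with *MRPL12* at 79.0 CPM and 232 CPM.

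Of 11 further RNA polymerase I factors tested 3 were lower (median -0.22), of 12 exosome genes 3 (median -0.33), and of 10 assembly factors of the snoRNA particles 1, *RUVBL1* (-0.78), which is near the share of all genes. Among 9 polyamine and hypusine genes 3 were lower. *EIF5A*, the protein that carries hypusine, was at 394 CPM and 695 CPM, and *DOHH*, which completes the hypusine, had -0.63. *SAT1* had -1.22 over all cells and did not pass in *IGLL1*-low *CD3D*+ cells, where 3 genes, *EIF5A*, *DOHH* and *AMD1*, were lower. The 79 cytosolic ribosomal proteins had a median of -0.02, with 9 higher and 1 lower, and the higher share was near that of all genes (12%).

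Of 10 MYC network genes tested 0 were lower and 2 higher at day 14, counts too small to set apart from the 9.63% lower and 12% higher of all genes. The 2 were *MXD1* (15.9 CPM and 7.95 CPM) and *MXD4* (46.5 CPM and 27.2 CPM), which encode partners of MAX. *MXD3* was higher in cycling cells, at 44.3 CPM against 3.94 CPM in *IGLL1*-low *CD3D*+ cells of day 10 and at 65.5 CPM against 5.80 CPM in *CD8B*+ cells of day 14. *MXD4* was lower, at 17.0 CPM against 166 CPM and at 33.9 CPM against 164 CPM. In resting *GNLY*-high cells *MXI1* was at 33.7 CPM and in resting *CD8B*+ cells at 9.15 CPM.

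In the comparison of cycling and resting *IGLL1*-low *CD3D*+ cells of day 10 the other lists were also counted. Of 39 small-subunit processome genes tested 22 were higher and 1 lower, of 40 large-subunit genes 16 were higher and 0 lower, and of 12 exosome genes 7 were higher and 0 lower. The cytosolic ribosomal proteins had 0 higher and 0 lower genes and a median of -0.25. The 20 cycling genes define the groups and were all higher.

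**Figure D5:**
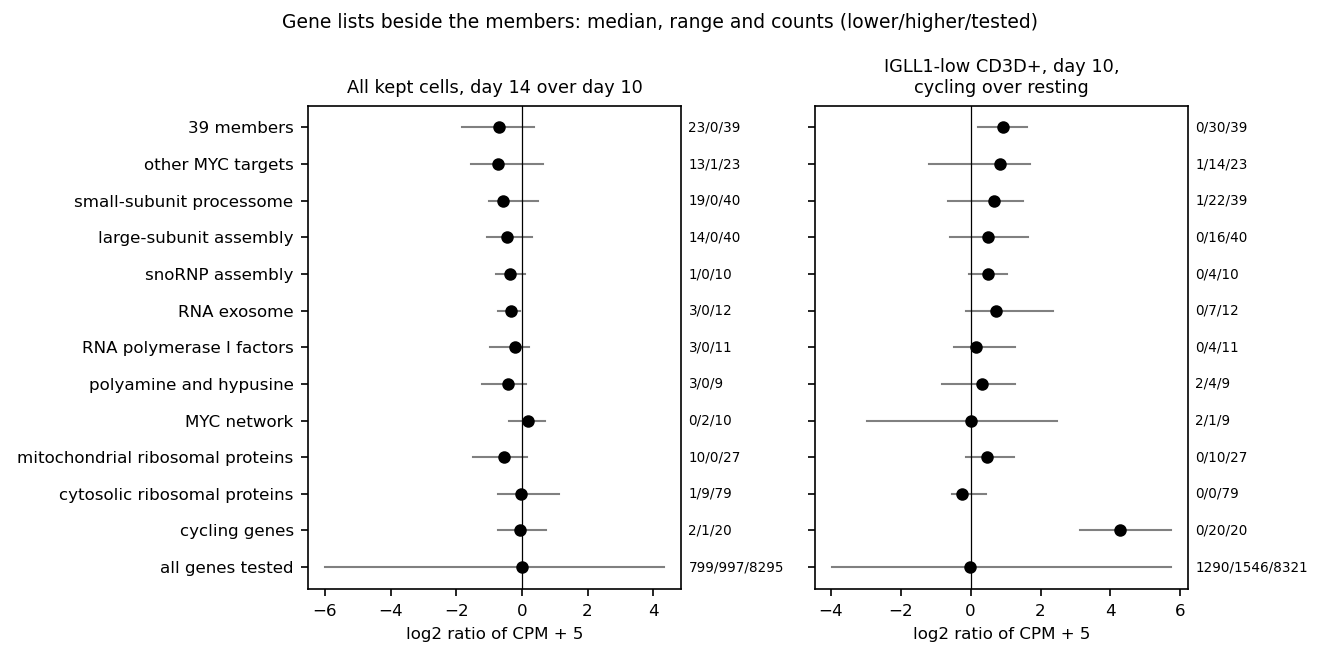
Median (points) and range (lines) of the log2 ratio of CPM + 5 (x axis) for the members and 11 other gene lists beside all genes tested, for all kept cells, day 14 over day 10 (left), and cycling over resting *IGLL1*-low *CD3D*+ cells of day 10 (right). Numbers beside each line give genes lower, higher and tested. The medians of the members and the processome list lie left of 0 in the first panel and right of 0 in the second, and the cytosolic ribosomal proteins have medians of -0.02 and -0.25.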

How the data were processed

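Reads of both CD7+ libraries had been aligned to GRCh38 and counted by the authors with Cell Ranger 4.0.0, which the submitters' processing notes name beside Seurat. The deposited matrices are raw, unnormalized UMI counts of 36601 genes over all barcodes, including empty droplets. Cells were barcodes within 1000 to 7000 detected genes whose mitochondrial share was 18% or less, after the study's methods, with its limits read as detected genes. Doublets were kept.

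UMIs were summed over the cells of each gate, day and phase and given as counts per 1000000 UMIs (CPM). Gates were applied in the order *CST3*+*LYZ*-high, *CD34*+, *GNLY*-high, *CD8B*+ (with a *CD3D* UMI), *IGLL1*-high and *IGLL1*-low *CD3D*+, and cells between 300 and 1000 CPM of the cycling genes were in neither phase. Levels have exact Poisson and ratios conditional binomial 95% intervals. With 1 library per day no p-value was computed, since cells are not replicates. Calls used a pseudocount of 5 CPM, a fold of 1.5 and a minimum of 10 CPM in 1 group. The median shift over genes at 50 CPM or more in both groups was 0.09 or less on the log2 scale, in either direction, except where printed. All 39 members were named, and from each other list up to 4 genes with the largest ratios past the fold. The members and lists were chosen with earlier results of these data known. The comparisons within cycling *CD8B*+ cells and of *CST3*+*LYZ*-high cells were added after the data were seen. Gene positions were matched by gene ID to an annotation of the same build, and promoter windows by symbol to RefSeq. The ratio steps were tested on simulated data. Python 3.11.15, numpy 2.4.6, scipy 1.17.1 and pandas 2.3.3 were used.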

Additional observations from a re-analysis of the deposited data

How the results depend on the processing

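Of 394 counts of members recomputed under 16 planned and 2 added alternatives, 374 stayed within 1.5 times the reported count. Many of the 374 were counts of 0 that stayed at 0 under every alternative. Among them were members higher at day 14 in each comparison by day and members past 1.5-fold between the early lymphoid gates of day 10. The 20 counts that moved had all been reported above 0. No ratio of a member that passed 1.5-fold changed sign. A limit of 2-fold left 4 lower members in all cells by day, 7 in *IGLL1*-low *CD3D*+ cells, 4 in *GNLY*-high cells, 3 in cycling *CD8B*+ cells, 3 in cycling *CD8B*+ against cycling *IGLL1*-low *CD3D*+ cells, 1 in resting *GNLY*-high against resting *CD8B*+ cells and 0 in *CST3*+*LYZ*-high cells, and 18 and 7 higher members in cycling *IGLL1*-low *CD3D*+ and *CD8B*+ cells. This limit is stricter by construction. The shares of all genes printed above are those at 1.5-fold and do not apply to the counts at 2-fold. With genes at 50 CPM or more, 12 members were lower in *GNLY*-high cells by day and 0 in resting *GNLY*-high cells, since fewer genes were tested. The count of 3 in resting *GNLY*-high cells became 5 with a pseudocount of 1 CPM, without ribosomal protein and mitochondrial genes in the total, with at most 10% mitochondrial UMIs or with thinning to 5000 UMIs, and 1 with a single limit of 600 CPM for cycling. The cause was not tested. The count of 5 in cycling *CST3*+*LYZ*-high cells became 2 with median-ratio scaling or without ribosomal protein and mitochondrial genes. Under the added alternatives it became 11 with cycling at 3000 CPM and 10 without cells that had a UMI of *FST*, a gene seen in 22.3% of *IGLL1*-low *CD3D*+ cells at day 10. No paired analysis was possible because each day has 1 library and the labels give no replicate numbers, and no library could be left out. Depth limits the small groups most, such as the 186 resting *IGLL1*-low *CD3D*+ cells of day 10, where *NOL6* had an interval of 1.44 to 7.41 for its ratio of 2.97.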

Other observations

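The *IGLL1*-high gate of day 14 held 22 cells, of which 20 were cycling. Members took 0.744% of their UMIs (0.726 to 0.763%), beside 0.544% over all cycling cells of that day. *IGLL1* itself was at 1823 CPM in these cells and at 82.5 CPM in day 14 barcodes under 50 UMIs. They had a median of 36044.5 UMIs per cell, and *IGLL1*-high cells of day 10 had 19021.5. *MYC* was at 97.3 CPM (77.2 to 120.9) at day 14 and 78.0 CPM (75.3 to 80.8) at day 10 in this gate, while *ODC1* was at 119 CPM (96.6 to 145) and 269 CPM (264 to 274). The 45 *CD34*+ cells of day 14 are given no value, since barcodes under 50 UMIs held *CD34* far above its level in cells.

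Cells that entered no gate, 915 at day 10 and 811 at day 14, had members at 0.816% and 0.513% of their UMIs, near the whole library of each day.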
